A study of Mus musculus with 22 samples.

Results

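Complement components and complement receptors were examined as 9 listed genes in mouse bone marrow-derived macrophages (BMDM), out of 19505 genes that the arrays could name. The genes were C1qa, C1qb, C1qc, C3, C4b, Cfb, Cfp, C3ar1 and C5ar1, listed by symbol, with earlier results of these data known. Each was represented by the probe set paired with its symbol in the platform annotation, and 8 of the 9 had 1 such probe set. For C3, no probe set was paired with the symbol, so C3 is named here without a value. Marrow cells of C57/bl6 mice had been grown into macrophages with medium conditioned by L929 fibroblasts, and their RNA was hybridised to 22 Clariom S arrays. The groups were HMB+LPS (5 arrays), given lipopolysaccharide (LPS, a component of bacterial walls that induces an M1-like state) at 10 ng/ml and β-hydroxy-β-methylbutyrate (HMB, a leucine metabolite) at 1 mM for 48 h; LPS (5 arrays), with LPS alone for 48 h; HMB (6 arrays), unpolarized M0 cells given HMB alone for 48 h; and Ctrl (6 arrays), untreated M0 cells. The question put to these samples was whether HMB moves macrophages towards an M1-like state, with or without LPS. The labels do not say whether arrays of a group came from separate animals or cultures, so p-values measure only how far these samples spread, and that spread may be technical.

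Complement is a cascade of blood proteins that marks particles for uptake, recruits leukocytes and can lyse membranes. C1q, built from the chains of C1qa, C1qb and C1qc, recognises bound antibody and dying cells and starts the classical pathway, in which C4 is cleaved. Cfb (factor B) supplies the protease of the alternative pathway convertase, and Cfp (properdin) stabilises that convertase. Cleavage of C3, the step on which all pathways meet, and of C5 releases small peptides that are sensed by the receptors encoded by C3ar1 and C5ar1. Macrophages are a major source of C1q in tissues, and they also make factor B, properdin and both receptors.

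C1qa, C1qb and C1qc are direct neighbours on chromosome 4 in the RefSeq gene table, with 0 annotated genes between C1qb and C1qc and 0 between C1qc and C1qa. C4b and Cfb lie on chromosome 17 with 11 annotated genes between them, 5 of them protein-coding. The bases upstream of the starts of C1qb and C1qc are shown because the values of these genes went up and down together across the arrays. Of the 9 genes, 6 had a RefSeq promoter entry (GRCm38.p6). C1qa, C4b and Cfb had none, so they were not searched. The 250 bases before each start were searched on both strands for GAGGAA, a purine-rich core of the kind bound by PU.1 and other ETS factors, which does not overlap itself. Capitals mark it or its reverse complement.
C1qb (chr4:136886201-136886450, minus strand): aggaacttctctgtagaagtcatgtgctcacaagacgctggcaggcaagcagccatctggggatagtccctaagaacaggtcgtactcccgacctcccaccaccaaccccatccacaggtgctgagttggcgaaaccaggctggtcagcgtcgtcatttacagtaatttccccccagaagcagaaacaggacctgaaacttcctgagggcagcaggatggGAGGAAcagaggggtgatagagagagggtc
C1qc (chr4:136892915-136893164, minus strand): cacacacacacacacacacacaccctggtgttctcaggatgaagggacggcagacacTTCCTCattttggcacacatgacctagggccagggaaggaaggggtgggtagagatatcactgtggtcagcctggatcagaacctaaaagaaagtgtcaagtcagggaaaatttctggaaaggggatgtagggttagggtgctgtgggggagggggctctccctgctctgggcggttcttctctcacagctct
Of the 6 entries, 2 held the motif, those of C1qb and C1qc, and 23.3% of all 32851 RefSeq promoters hold it in the same window. A match describes the letters in this window and is not evidence of a bound factor.

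The arrays were not uniform within groups. In M0 cells, numbers 5 and 6 of Ctrl and HMB differed from numbers 1 to 4, and a signature of that difference was built without complement genes. It kept only probe sets with an unadjusted limma p above 0.05 in both LPS comparisons over all 22 arrays. Probe sets that responded to LPS on only some of the arrays could remain in it. The signature placed 8 arrays apart from the other 14. These were HMB+LPS 5 and 6, LPS 3 and 6, HMB 5 and 6, and Ctrl 5 and 6. This split is not given by the labels. For Ctrl and HMB it largely followed from the replicate numbers, since the signature was built on 5 and 6 against 1 to 4. Only the LPS-treated arrays were not used to define that difference. Of these, the split took in HMB+LPS 5 and 6 and LPS 3 and 6. LPS 3 and LPS 5 went against their same-numbered HMB+LPS arrays (r = −0.51 and −0.52 of deviations from group means), while numbers 2, 4 and 6 went with theirs (0.62, 0.54 and 0.60). Whether LPS 3 and LPS 5 were exchanged was not tested, and the groups would be the same if they were. Among LPS-treated arrays it went together with the size of the response. Nos2, the inducible nitric oxide synthase, reached 15.88 to 16.60 on the 6 LPS-treated arrays that did not stand apart and 5.64 to 9.85 on the 4 that did, and Il6, a cytokine, reached 11.69 to 15.09 and 3.43 to 4.10. Lcn2, an iron-binding acute-phase protein, was high on all 10, at 15.21 to 18.20, against 3.10 to 8.93 without LPS. Differences between the sets were therefore not tested, and results that depend on the 8 arrays are also given without them. The control separation, the gap between positive and negative control probe sets, was 3.65 to 5.26 log2 units, and it was under 4 on 6 arrays (HMB+LPS 2 and 3, LPS 2 and 5, HMB 1 and Ctrl 1). The macrophage markers Adgre1 (15.22 to 17.42), Csf1r (15.47 to 17.19) and Lyz2 (18.15 to 19.03) were high on all 22 arrays. Marco, on the same list, was not, with 3.18 to 15.97, and lay above the median negative control on 14 of 22 arrays. On the 8 arrays without LPS that did not stand apart, Marco ran from 3.18 to 5.34. All 6 matched lymphocyte markers stayed under the median negative control on every array. Of 9 matched macrophage markers 3 were called higher in HMB+LPS against HMB and 0 in LPS against Ctrl, with 5 and 7 at an unadjusted p under 0.05, and LPS minus Ctrl was negative for Csf1r (−0.57, adjusted p = 0.294) and Mertk (−0.88, adjusted p = 0.331). Of 9 neutrophil markers 1 was called higher in both (S100a8, which LPS also induces in macrophages), while Elane, Mpo, Camp, Ngp and Ltf stayed under the median negative control throughout. Of 8 dendritic cell markers limma called 0 in either LPS comparison, with 0 and 1 at an unadjusted p under 0.05 in LPS against Ctrl and HMB+LPS against HMB.

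Under LPS, factor B and properdin were higher and the C1q genes were lower on most arrays, but only the first pair passed the test over all arrays. All levels are deposited log2 values, and differences are log2 differences ± standard error from limma with Benjamini-Hochberg adjustment over 22206 probe sets. In LPS against Ctrl, 2 of the 8 measured members were called higher (Cfb and Cfp) and 0 lower, at an adjusted p threshold of 0.05. Over all probe sets, 1.08% were called higher and 0.788% lower. The median difference of the 8 members was −0.78, and that of all probe sets was 0.00. In HMB+LPS against HMB, the same 2 members were called higher and 0 lower, where 1.99% of all probe sets were called higher and 1.54% lower. The members' median difference there was −0.51, against −0.01 over all probe sets. Because whole cultures were measured, fewer cells of a kind and less RNA per cell cannot be told apart in any of these values.

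Without the 8 arrays that stand apart, 5 of the 8 members passed the test in each LPS comparison, with Cfb and Cfp higher and C1qa, C1qb and C1qc lower. The split came from these same data, and the LPS-treated arrays left out were those with the weaker Nos2 and Il6 response. Larger differences and smaller p-values by limma could follow from that choice alone. Here and below, they describe the arrays kept and are not independent support. In that fit, 4.22% of all probe sets were called higher and 6.33% lower in LPS against Ctrl, and 4.46% higher and 5.82% lower in HMB+LPS against HMB. With only the 8 arrays, 1 member (Cfb) was called higher in LPS against Ctrl, with 0.509% of all probe sets, and 2 members (Cfb and Cfp) in HMB+LPS against HMB, with 2.89%. The C1q genes were called in neither comparison there.

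**Figure D1:**
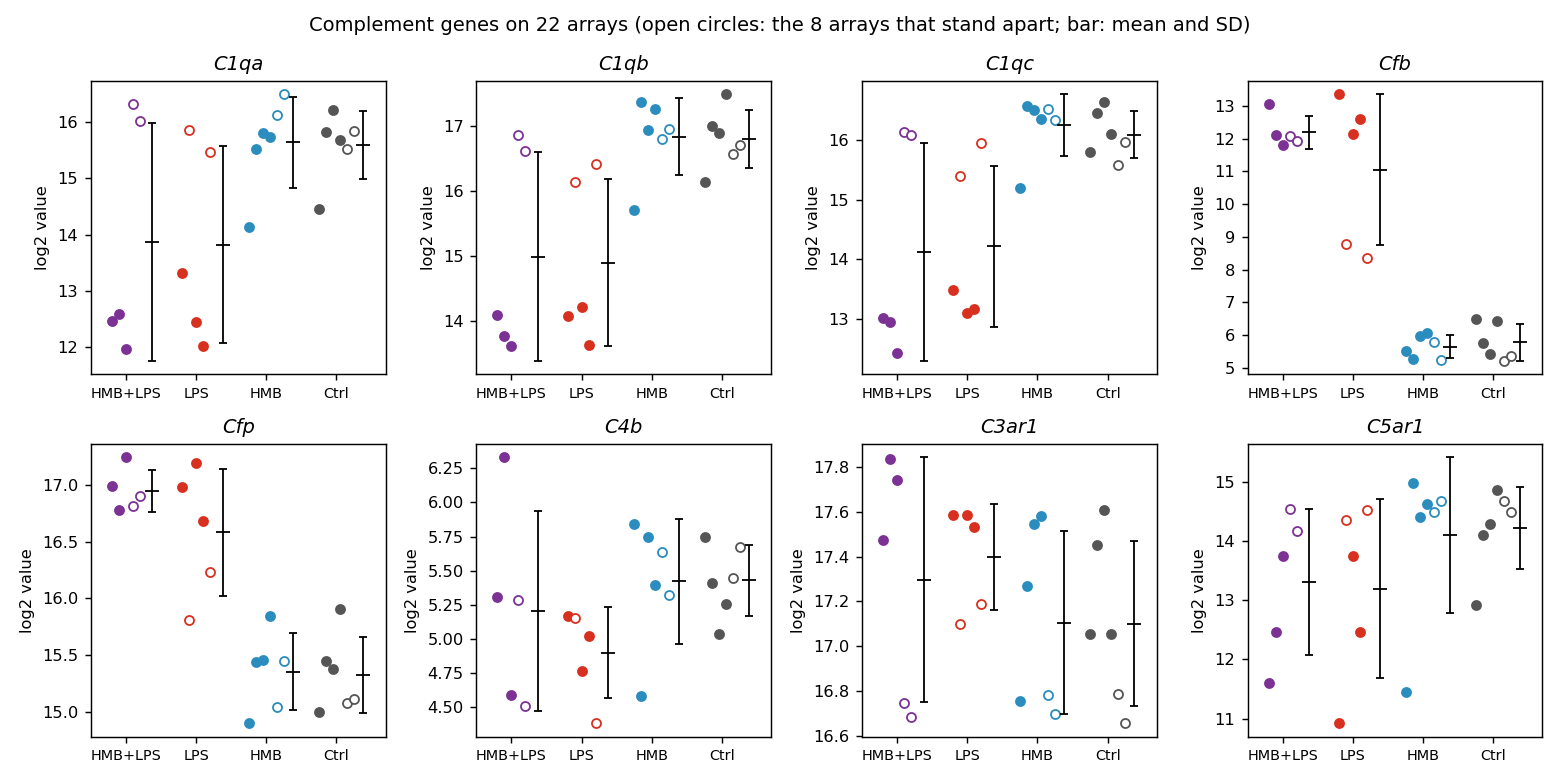
Log2 value of each of the 8 measured complement genes on every array, with groups along the horizontal axis and a separate vertical scale for each gene. Filled circles are the 14 arrays that go together, open circles the 8 that stand apart, and the black bar gives the group mean and SD; C1qa, C1qb and C1qc are low only on filled LPS-treated arrays, while Cfb is above 8 on all 10 LPS-treated arrays and under 6.5 without LPS.

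C1qa encodes the A chain of C1q. Its log2 value was 12.46, 12.59, 11.97, 16.32 and 16.02 on HMB+LPS arrays 2 to 6, and 13.31, 15.86, 12.45, 12.01 and 15.46 on LPS arrays 2 to 6. In HMB it ran from 14.14 through a median of 15.77 to 16.49, and in Ctrl from 14.45 through 15.75 to 16.21. The 6 low LPS-treated arrays lay under every M0 array, and the 4 others, HMB+LPS 5 and 6 and LPS 3 and 6, lay within the M0 range. Over all arrays, LPS minus Ctrl was −1.77 ± 0.78 (limma adjusted p = 0.291) and HMB+LPS minus HMB was −1.77 ± 0.78 (adjusted p = 0.261), so neither passed. In the fit without the 8 arrays, C1qa fell by 2.95 in LPS against Ctrl (SE 0.47, adjusted p = 0.000698), which is 7.73-fold lower, and by 2.96 in HMB+LPS against HMB (SE 0.47, adjusted p = 0.000658).

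C1qb, the B chain, showed the same arrangement of arrays. Its values on HMB+LPS arrays 2 to 6 were 14.10, 13.78, 13.62, 16.86 and 16.62, and on LPS arrays 2 to 6 they were 14.08, 16.15, 14.23, 13.64 and 16.43. The HMB arrays ran from 15.71 through a median of 16.95 to 17.37 and the Ctrl arrays from 16.15 through 16.80 to 17.49. LPS minus Ctrl was −1.90 ± 0.59 (adjusted p = 0.102) and HMB+LPS minus HMB was −1.84 ± 0.59 (adjusted p = 0.0874) over all arrays. C1qb fell, once the 8 arrays were left out, by 2.91 in LPS against Ctrl (SE 0.39, adjusted p = 0.000162) and by 2.99 in HMB+LPS against HMB (SE 0.39, adjusted p = 0.000123).

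C1qc, the C chain, had the smallest adjusted p of the 3 in that fit. On HMB+LPS arrays 2 to 6 it stood at 13.02, 12.96, 12.44, 16.14 and 16.09, and on LPS arrays 2 to 6 at 13.48, 15.40, 13.10, 13.17 and 15.96. In HMB it ran from 15.20 through 16.42 to 16.58, and in Ctrl from 15.59 through 16.04 to 16.63. LPS minus Ctrl was −1.87 ± 0.63 (adjusted p = 0.142) and HMB+LPS minus HMB was −2.11 ± 0.63 (adjusted p = 0.0641) over all arrays. Without the 8 arrays C1qc fell by 2.99 (SE 0.34, adjusted p = 3.06e-05), 7.93-fold lower in LPS than in Ctrl, and by 3.35 in HMB+LPS against HMB (SE 0.34, adjusted p = 9.94e-06). With only the 8 arrays the same differences were −0.11 ± 0.25 (adjusted p = 0.936) and −0.31 ± 0.25 (adjusted p = 0.567).

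The 3 C1q genes went together from array to array. Across the 22 arrays Pearson's r was 0.98 between C1qb and C1qc, 0.96 between C1qa and C1qc and 0.95 between C1qa and C1qb, as a description over arrays that share groups and array sets. Since the values fall into a low and a high cluster, r was also taken within each. Within the 6 low arrays it was 0.54, 0.72 and 0.61 for the same pairs, and within the other 16 it was 0.80, 0.61 and 0.60. Among M0 arrays, HMB 1 had the lowest value of all 3 genes, and Ctrl 1 the next lowest of C1qa and C1qb. Their control separations were 3.78 and 3.96. Across all arrays, r with the control separation was 0.79 for C1qa, 0.76 for C1qb and 0.71 for C1qc, and without the 6 arrays of low separation LPS minus Ctrl was −1.22 for C1qa, −1.34 for C1qb and −1.33 for C1qc (adjusted p = 0.691, 0.512 and 0.586). None of those 6 arrays stands apart, so LPS 3, 4 and 6 remained, of which LPS 3 and 6 stand apart. C1qa was 12.45 on LPS 4 and 11.97 on HMB+LPS 4, whose separations were 4.40 and 4.28. In this and every other fit without those 6 arrays, the mix of array sets changed too, and the 2 were not tested apart.

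Single arrays moved 2 of these genes past the threshold. In LPS against Ctrl, C1qb passed without LPS 3 (−2.21, adjusted p = 0.0452) or LPS 6 (−2.28, adjusted p = 0.0333), and C1qc passed without LPS 6 (−2.30, adjusted p = 0.0447). In HMB+LPS against HMB, C1qb passed without HMB+LPS 5 (−2.31, adjusted p = 0.0216) or 6 (−2.25, adjusted p = 0.0316). C1qc passed there without HMB+LPS 5 (−2.62, adjusted p = 0.0154), without HMB+LPS 6 (−2.60, adjusted p = 0.0176) and, through the shared spread, without LPS 6 (−2.11, adjusted p = 0.0459). All 4 arrays named are among the 8 that stand apart, and C1qa passed with no single array left out.

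Fibroblast and stromal markers differed among themselves in direction, and 2 of them, Dcn and Lum, were high on the arrays with low C1q. On the 6 LPS-treated arrays with low C1q, Dcn (decorin, a matrix proteoglycan) stood at 11.91 to 12.78 and Lum (lumican) at 8.75 to 9.89, against 2.97 to 4.34 and 3.28 to 5.80 on the other 4 LPS-treated arrays. Dcn ran from 3.07 to 5.00 on the 12 arrays without LPS, and Lum from 3.87 to 6.01. Col1a1, a collagen chain, ran from 7.08 to 8.85 on those 6 arrays and from 6.53 to 8.82 on the other 4. Without LPS it ran from 9.49 to 11.23 on the 8 arrays that did not stand apart, above all of those 6. On the 4 arrays without LPS that stand apart it ran from 6.47 to 8.06. Of the 10 listed markers 9 were matched, and limma called 0 of the 9 in either LPS comparison, with 3 at an unadjusted p under 0.05 in HMB+LPS against HMB and 5 in LPS against Ctrl. The collagen gene Col1a2 was at −2.53 in HMB+LPS minus HMB (adjusted p = 0.0929) and −2.79 in LPS minus Ctrl (adjusted p = 0.082), and Postn (periostin) at −1.33 (adjusted p = 0.392) and −1.68 (adjusted p = 0.27). The median difference of the 9 was −0.36 in HMB+LPS minus HMB and −0.62 in LPS minus Ctrl. Thy1 stayed under the median negative control on every array. The summed log2 level of the 9 ran from 54.35 to 68.11 in HMB+LPS, from 49.74 to 69.28 in LPS, from 50.64 to 70.84 in HMB and from 47.78 to 64.47 in Ctrl. Their part in the C1q values was not tested.

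**Figure D2:**
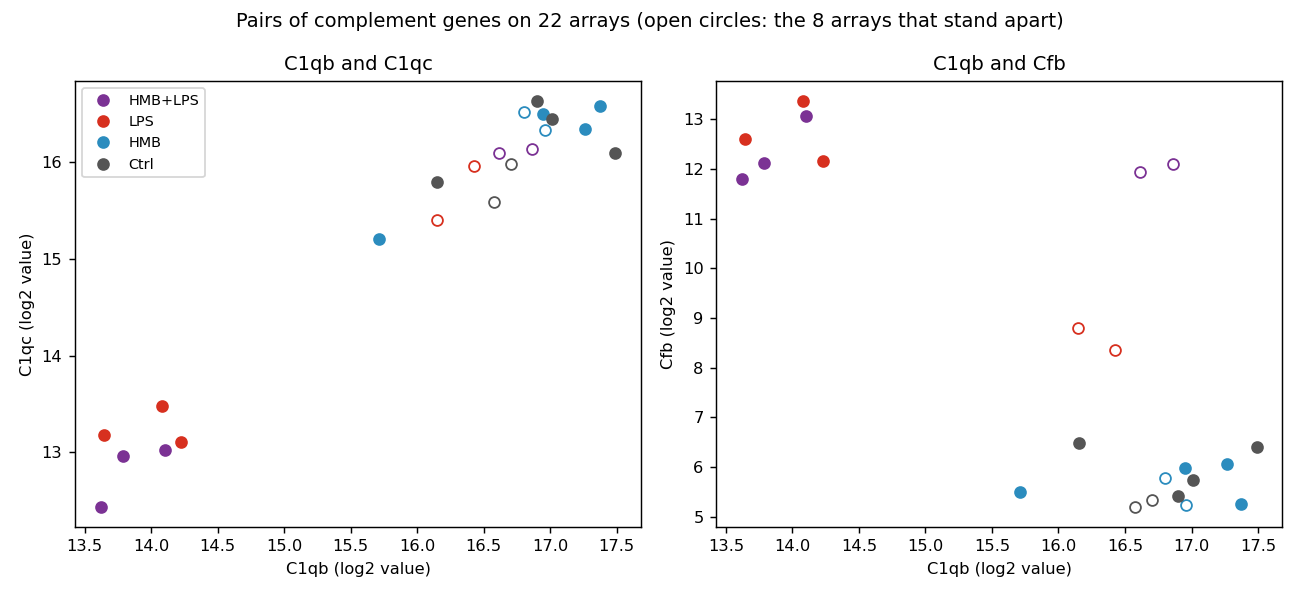
Log2 value of C1qc (left) and of Cfb (right) against that of C1qb, with 1 circle per array coloured by group and the 8 arrays that stand apart drawn open. C1qb and C1qc lie along 1 line with 6 LPS-treated arrays at its low end, whereas on the right HMB+LPS 5 and 6 combine Cfb near 12 with C1qb above 16.5, and LPS 3 and 6 lie between them and the M0 arrays.

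Cfb, factor B of the alternative pathway, was higher in both LPS comparisons, on every LPS-treated array. On HMB+LPS arrays 2 to 6 it reached 13.07, 12.11, 11.80, 12.10 and 11.93, and on LPS arrays 2 to 6 it reached 13.36, 8.80, 12.15, 12.60 and 8.37. In HMB it ran from 5.24 through a median of 5.64 to 6.07, and in Ctrl from 5.21 through 5.59 to 6.49. All 10 LPS-treated arrays were above all 12 M0 arrays, and LPS 3 and 6 lay between the 2 clusters. Cfb rose by 5.28 ± 0.65 in LPS against Ctrl (adjusted p = 8e-05) and by 6.56 ± 0.65 in HMB+LPS against HMB (adjusted p = 2.33e-06).

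The size of the Cfb change depends on how low its M0 level is taken to be. In M0 cells Cfb lay above the array's median negative control on 0 of 6 HMB arrays and 1 of 6 Ctrl arrays, so its M0 values are at background and the differences above set a measured level against a level near none. With each M0 value replaced by the median negative control where that was higher, HMB+LPS was at least 51.4-fold above HMB and LPS at least 25.1-fold above Ctrl. With the 95th percentile of the negative controls in its place, the bounds were 3.10-fold and 1.61-fold, and LPS 3 and 6 themselves lay under that percentile. Cfb without the 8 arrays rose by 6.68 ± 0.39 in LPS against Ctrl (adjusted p = 3.14e-08) and by 6.63 ± 0.39 in HMB+LPS against HMB (adjusted p = 3.56e-08). With only the 8 it rose by 3.30 ± 0.25 (adjusted p = 0.00574) and 6.50 ± 0.25 (adjusted p = 0.000187).

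Cfp, properdin, was abundant in every group and higher with LPS. It stood at 16.99, 16.79, 17.25, 16.82 and 16.91 on HMB+LPS arrays 2 to 6, and at 16.99, 15.81, 17.20, 16.69 and 16.24 on LPS arrays 2 to 6. HMB arrays ran from 14.90 through 15.44 to 15.84 and Ctrl arrays from 15.00 through 15.25 to 15.90. HMB+LPS and HMB did not overlap, while LPS 3 lay just under the highest Ctrl array. Cfp rose by 1.60 ± 0.24 in HMB+LPS against HMB (adjusted p = 0.000406), 3.02-fold, and by 1.26 ± 0.24 in LPS against Ctrl (adjusted p = 0.00764), 2.40-fold. The LPS call was lost when only the 8 arrays were fitted (0.93 ± 0.22, adjusted p = 0.2), and without the 6 arrays of low control separation (1.03, adjusted p = 0.262), and it was lost with only LPS and Ctrl in the fit (adjusted p = 0.0694). Without the 8 arrays the rises were 1.52 ± 0.29 in LPS against Ctrl (adjusted p = 0.00241) and 1.60 ± 0.29 in HMB+LPS against HMB (adjusted p = 0.00174).

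C4b, which encodes the C4 cleaved in the classical pathway, was at the background of these arrays. It ran from 4.38 on LPS 6 to 6.33 on HMB+LPS 3 and lay under the median negative control on all 22 arrays. Group means were 5.21 ± 0.73 in HMB+LPS (SD, n = 5), 4.90 ± 0.33 in LPS (SD, n = 5), 5.42 ± 0.46 in HMB (SD, n = 6) and 5.43 ± 0.26 in Ctrl (SD, n = 6). LPS minus Ctrl was −0.53 ± 0.29 (adjusted p = 0.42) and HMB+LPS minus HMB was −0.22 ± 0.29 (adjusted p = 0.819). At this level no difference could be measured, in either direction.

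C3ar1, the receptor for the C3a peptide, had the narrowest span of the members, from 16.66 on Ctrl 6 to 17.83 on HMB+LPS 3. It was 17.48, 17.83, 17.74, 16.75 and 16.69 on HMB+LPS arrays 2 to 6, and 17.58, 17.10, 17.59, 17.53 and 17.19 on LPS arrays 2 to 6. HMB arrays ran from 16.70 through 17.03 to 17.58, and Ctrl arrays from 16.66 through 17.05 to 17.61. Its low values were on the arrays that stand apart and on HMB 1, with 16.69 to 17.19 on the 4 LPS-treated arrays of that set and 17.48 to 17.83 on the other 6. LPS minus Ctrl was 0.30, with a 95% interval from −0.23 to 0.83 (adjusted p = 0.665), and HMB+LPS minus HMB was 0.19, from −0.34 to 0.72 (adjusted p = 0.819).

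C5ar1, the receptor for C5a, varied widely within every group. On HMB+LPS arrays 2 to 6 its values were 11.61, 12.47, 13.75, 14.54 and 14.16, and on LPS arrays 2 to 6 they were 10.92, 14.35, 13.74, 12.46 and 14.52. HMB arrays ran from 11.45 through 14.56 to 14.98, and Ctrl arrays from 12.92 through 14.39 to 14.85. The 6 arrays with a control separation under 4 held the 6 lowest C5ar1 values, from 10.92 to 12.92, and the other 16 arrays ran from 13.74 to 14.98. Across all arrays r with that separation was 0.90. LPS minus Ctrl was −1.02 ± 0.67 (adjusted p = 0.532) and HMB+LPS minus HMB was −0.80 ± 0.67 (adjusted p = 0.662), so C5ar1 passed in neither. Without the 6 arrays of low separation these differences were −0.28 (adjusted p = 0.788) and −0.48 (adjusted p = 0.449).

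**Figure D3:**
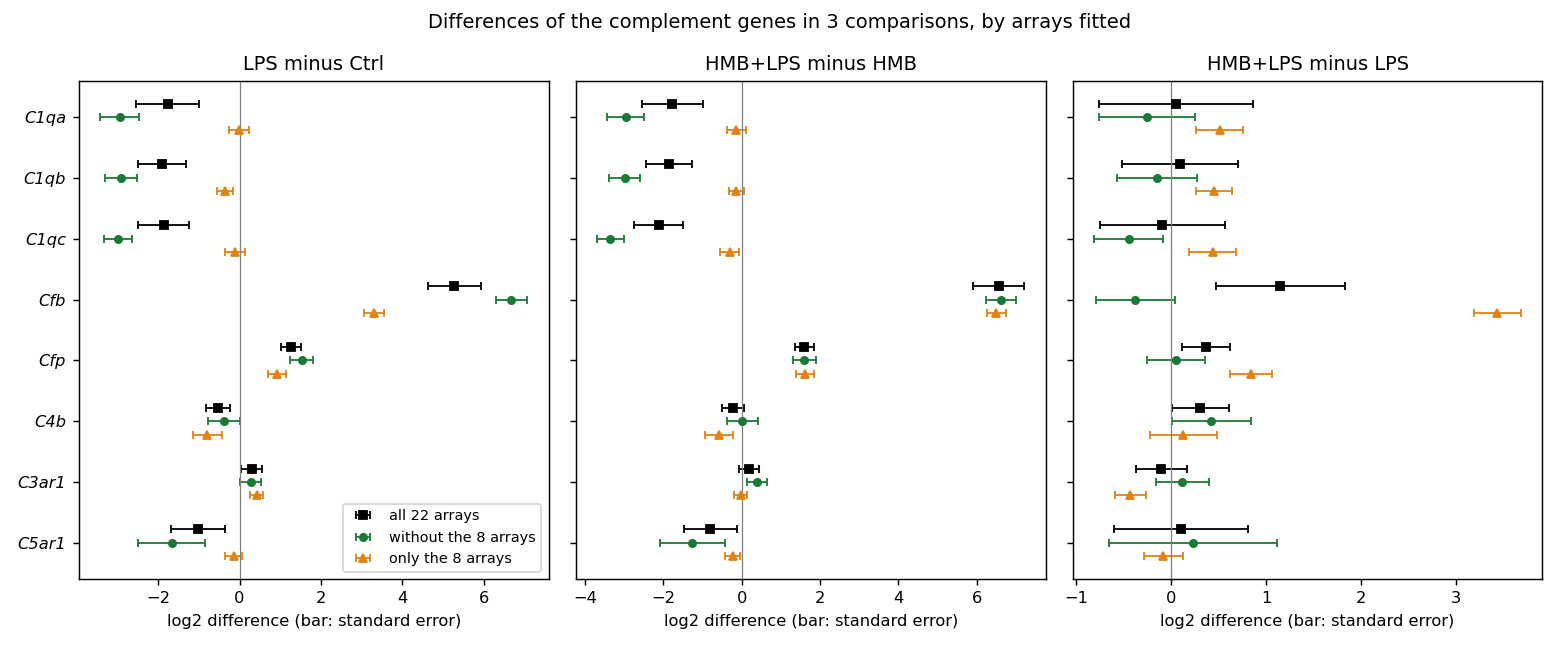
Log2 difference of each member (vertical axis) in 3 comparisons, with bars for the standard error, from fits of all 22 arrays (black squares), without the 8 arrays that stand apart (green circles) and of those 8 alone (orange triangles). In both LPS comparisons the C1q genes lie near −3 without the 8 arrays and near 0 on the 8 alone, whereas in HMB+LPS against LPS Cfb is at 3.43 on the 8 arrays and at −0.37 without them.

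HMB was not followed by a measurable change in any member over all arrays. The comparisons were HMB against Ctrl, HMB+LPS against LPS, and the interaction, that is HMB+LPS minus LPS, less HMB minus Ctrl. In each, 0 of 8 members were called by limma, and so were 0% of all probe sets. At an unadjusted p under 0.05 the count of members was also 0 in each, and it was 0 in both HMB comparisons by the unmoderated test for 2 groups that the methods name. In HMB against Ctrl the members' differences ran from −0.13 for Cfb to 0.16 for C1qc, and the half-widths of their 95% intervals from 0.48 to 1.53. In HMB+LPS against LPS they ran from −0.10 for C3ar1 to 1.15 for Cfb, with half-widths from 0.52 to 1.68. For the interaction they ran from −0.25 for C1qc to 1.28 for Cfb, with half-widths from 0.71 to 2.27. With only Ctrl and HMB arrays, paired by number (an alternative chosen after seeing the data), the half-widths in HMB against Ctrl were 0.33 for Cfp to 0.59 for C5ar1, and 0 of 8 members were called or had an unadjusted p under 0.05.

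The HMB value of Cfb differed with the arrays fitted. Over all arrays HMB+LPS minus LPS was 1.15 ± 0.68 (adjusted p = 1), and the interaction was 1.28 ± 0.92 (adjusted p = 1). On the arrays that stand apart, Cfb stood at 12.10 and 11.93 in HMB+LPS 5 and 6, against 8.80 and 8.37 in LPS 3 and 6. In the fit of those 8 arrays Cfb was the only member called in HMB+LPS against LPS, higher by 3.43 ± 0.25 (adjusted p = 0.00794), where 2.2% of all probe sets were called higher. Its interaction there was 3.20 ± 0.35 (adjusted p = 0.063), which did not pass. Without the 8 arrays HMB+LPS minus LPS was −0.37 ± 0.42 (adjusted p = 1). Nos2 on the same arrays was 9.85 and 9.78 in HMB+LPS 5 and 6, against 5.64 and 5.74 in LPS 3 and 6. These are 2 arrays against 2, picked by a signature that goes together with the LPS response, and number 5 of HMB+LPS faces number 3 of LPS, so HMB and whatever set these arrays apart cannot be told apart in this value.

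Other members' HMB differences also changed with the arrays fitted, though none passed. On the 8 arrays alone, HMB+LPS minus LPS was 0.84 for Cfp (unadjusted p = 0.00772, adjusted p = 0.0816 by limma) and −0.43 for C3ar1 (unadjusted p = 0.0344, adjusted p = 0.18 by limma). Without the 8 arrays these differences were 0.05 and 0.12 (adjusted p = 1 for both). In HMB against Ctrl, the 8 arrays gave 0.63 for C1qa and 0.64 for C1qc (adjusted p = 0.287 and 0.284), and the rest gave −0.24 and −0.09 (adjusted p = 1 for both).

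In order of level, Cfb was highest in HMB+LPS, at 12.20 ± 0.50 (SD, n = 5), then in LPS, at 11.05 ± 2.30 (SD, n = 5), and lowest in both M0 groups, at 5.64 ± 0.36 in HMB and 5.77 ± 0.56 in Ctrl (SD, n = 6 each). Cfp had the same order of LPS-treated groups over M0 groups, with 16.95 ± 0.19 in HMB+LPS, 16.58 ± 0.56 in LPS, 15.35 ± 0.34 in HMB and 15.32 ± 0.34 in Ctrl. For both genes HMB+LPS and LPS did not differ beyond their spread, nor did HMB and Ctrl, whereas the step from LPS to Ctrl passed the test.

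The order was the opposite for C1q, with no neighbours that passed over all arrays. C1qa averaged 13.87 ± 2.11 in HMB+LPS and 13.82 ± 1.75 in LPS, against 15.64 ± 0.81 in HMB and 15.59 ± 0.60 in Ctrl. C1qb averaged 15.00 ± 1.60 in HMB+LPS and 14.90 ± 1.28 in LPS, against 16.84 ± 0.59 in HMB and 16.81 ± 0.45 in Ctrl. C1qc averaged 14.13 ± 1.83 in HMB+LPS and 14.22 ± 1.35 in LPS, against 16.25 ± 0.52 in HMB and 16.09 ± 0.39 in Ctrl. The SDs of the LPS-treated groups span a low and a high cluster and are not a spread about 1 level. The receptors had overlapping groups throughout. C3ar1 averaged 17.30 ± 0.55 in HMB+LPS, 17.40 ± 0.23 in LPS, 17.11 ± 0.41 in HMB and 17.10 ± 0.37 in Ctrl, and C5ar1 averaged 13.30 ± 1.23, 13.20 ± 1.51, 14.10 ± 1.31 and 14.22 ± 0.69 in HMB+LPS, LPS, HMB and Ctrl.

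The genes whose log2 values were most like each member's over the 22 arrays were taken by Pearson's r, as a description of arrays that share groups and sets. For C1qa these were Pld4 (0.97), Axl (0.96) and Ckb (0.96), for C1qb Oxct1 (0.98), C1qc (0.98) and Lsp1 (0.98), and for C1qc Pld4 (0.99), C1qb (0.98) and Oxct1 (0.98). With group means removed these 9 values of r were between 0.95 and 0.98, with both array sets present in every group. Axl is a receptor tyrosine kinase with a role in the uptake of dying cells, and Oxct1 an enzyme of ketone body use. Cfb was most like Bst1 (0.97), Mgst2 (0.97) and Psmd10 (0.96), and Cfp was most like Slco3a1 (0.98), Bst1 (0.97) and Ly6i (0.96). With group means removed, r was between 0.76 and 0.81 for Cfb and between 0.79 and 0.87 for Cfp.

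The receptors had other partners. C3ar1 was most like the nucleoside transporter gene Slc28a2 (0.91), Ube2e2 (0.89) and Apobr (0.89). C5ar1 was most like Gcnt1 (0.96), Ctnna1 (0.96) and Actb (0.96), the gene of β-actin. By rank (Spearman's rho) these were 0.79, 0.86 and 0.72. C5ar1 also had r = 0.90 with the control separation, and its part in this likeness was not tested. C4b was most like Olfr1112 (0.69), Olfr799 (0.68) and Fcnb (0.66), of which Fcnb, too, lay under the median negative control on all 22 arrays.

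Other complement genes were taken from a list ordered by role, of which 41 of 43 were matched. In LPS against Ctrl 0 of the 41 were called higher and 1 lower, with a median difference of −0.08, and in HMB+LPS against HMB 2 were called higher and 2 lower, with a median of 0.10. Over all probe sets, 1.08% were called higher and 0.788% lower in LPS against Ctrl, and 1.99% and 1.54% in HMB+LPS against HMB. No call fell among the 7 recognition molecules, the 9 proteases and substrates or the 6 genes of the terminal pathway. Of these 22, 15 stayed under the median negative control on every array, 5 in each class, and 0 lay above it on all arrays. The median of all tested probe sets, at 5.73 to 6.01 per array, lay under that control on every array but HMB 2. Lying under it is therefore usual among all probe sets and not particular to these classes. Of the 12 regulators 1 was called, and of the 7 receptors 1 was called in LPS against Ctrl and 3 in HMB+LPS against HMB. The 2 HMB comparisons and the interaction gave 0 calls among the 41 by limma, with 1, 4 and 3 genes at an unadjusted p under 0.05. Among all 22206 probe sets, 410, 686 and 465 had such an unadjusted p, and 0 were called.

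Among the receptors, Cd93, a surface protein first described as a receptor for C1q, fell in both LPS comparisons. It stood at 12.23, 12.30, 11.83, 13.34 and 13.17 on HMB+LPS arrays 2 to 6, and at 12.40, 13.30, 12.06, 12.47 and 13.42 on LPS arrays 2 to 6. HMB arrays ran from 13.38 to 14.67 and Ctrl arrays from 13.70 to 15.02, so neither LPS-treated group overlapped with its M0 group. It fell by 1.71 in LPS against Ctrl (SE 0.35, adjusted p = 0.0121) and by 1.65 in HMB+LPS against HMB (SE 0.35, adjusted p = 0.0089). With only the 8 arrays the differences were −0.37 (adjusted p = 0.532) and −0.23 (adjusted p = 0.551), and without them −2.49 (adjusted p = 4.71e-06) and −2.47 (adjusted p = 5.19e-06). Leaving out LPS 4 alone also ended the call against Ctrl (adjusted p = 0.061). Without the 6 arrays of low control separation both calls ended, at −1.42 in LPS minus Ctrl (adjusted p = 0.327) and −1.36 in HMB+LPS minus HMB (adjusted p = 0.176).

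The integrin chains of complement receptors 3 and 4 differed in direction. Itgam, the alpha chain of receptor 3, rose by 1.25 ± 0.25 in HMB+LPS against HMB (adjusted p = 0.00534), with 16.99 to 17.40 on HMB+LPS arrays and 14.86 to 16.42 on HMB arrays. In LPS against Ctrl it was 0.89 ± 0.25 (adjusted p = 0.0708), with no overlap between 16.52 to 17.49 in LPS and 15.47 to 16.43 in Ctrl. Itgax, the alpha chain of receptor 4, fell by 3.14 in HMB+LPS against HMB (SE 0.73, adjusted p = 0.0158), where HMB+LPS arrays ran from 5.94 to 9.45 and HMB arrays from 9.35 to 11.30. Its LPS minus Ctrl was −2.45 ± 0.73 (adjusted p = 0.089). The Itgax call ended without HMB+LPS 2, 3 or 4 (adjusted p = 0.0572, 0.0577 and 0.0652) and without arrays of low control separation (−2.35, adjusted p = 0.143). Without the 8 arrays, Itgax fell by 3.92 in LPS against Ctrl (adjusted p = 0.000116) and by 4.33 in HMB+LPS against HMB (adjusted p = 4.49e-05).

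Cd55b, a mouse gene for a membrane regulator that dissociates the convertases, was the regulator called. It rose by 1.85 ± 0.38 in HMB+LPS against HMB (adjusted p = 0.007), with 7.57, 6.91, 7.17, 7.73 and 8.88 on HMB+LPS arrays 2 to 6 and 5.16 to 6.74 on HMB arrays. In LPS against Ctrl it was 1.04 ± 0.38 (adjusted p = 0.186). The rise missed the threshold without the 8 arrays (1.28, adjusted p = 0.0757). Cd55b lay above the median negative control on 7 of 22 arrays, so its levels are low ones.

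**Figure D4:**
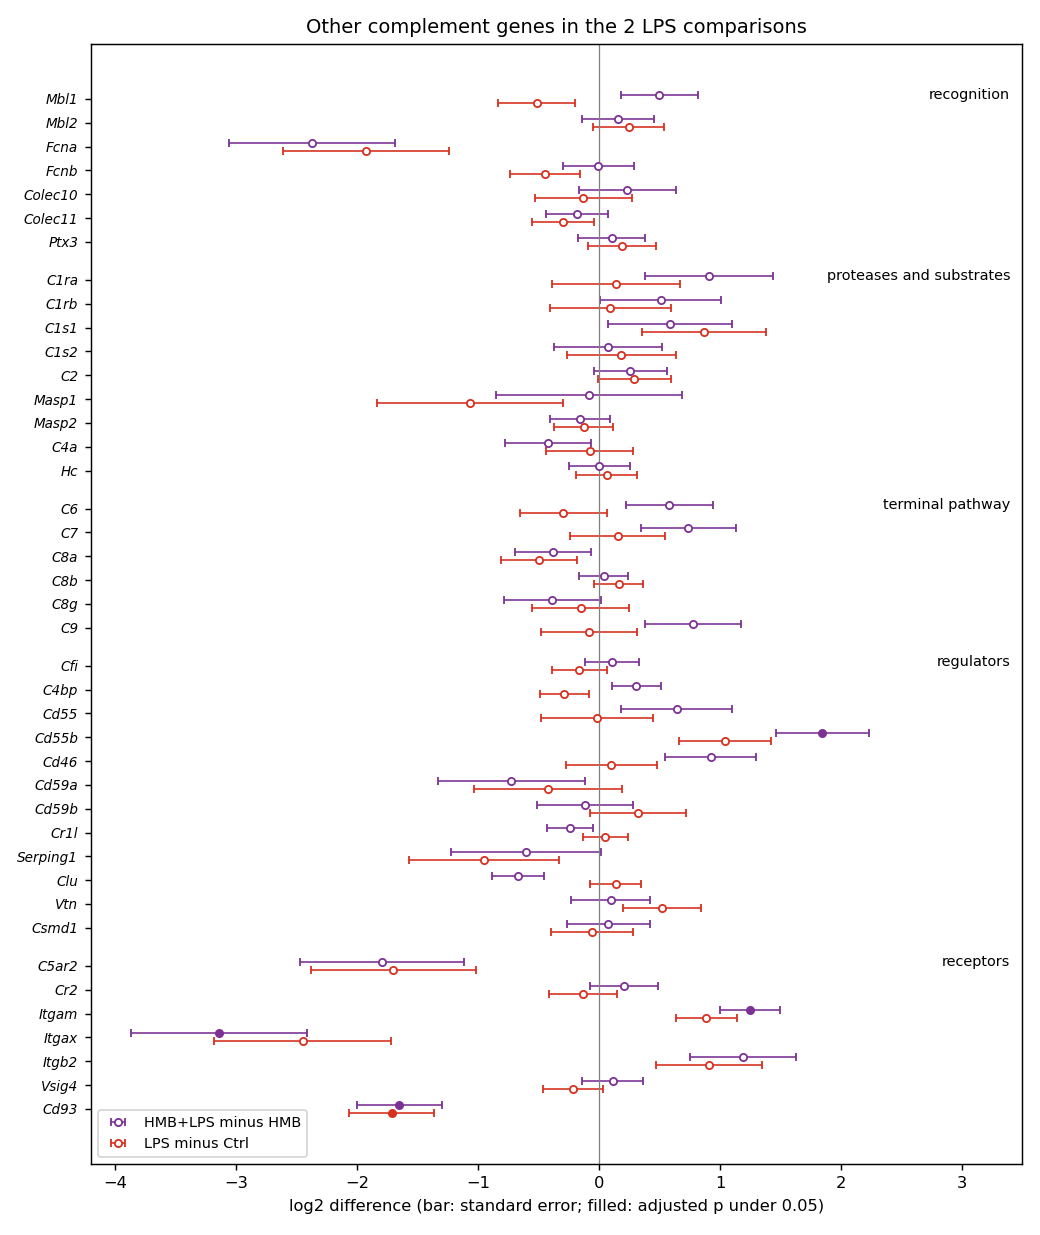
Log2 differences of the 41 other complement genes (vertical axis, grouped by role) in HMB+LPS minus HMB (purple) and LPS minus Ctrl (red), with bars for the standard error and filled circles for an adjusted p under 0.05. Filled circles are Cd55b, Itgam, Itgax and Cd93 in HMB+LPS minus HMB and Cd93 in LPS minus Ctrl.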

How the data were processed

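Total RNA of 22 BMDM samples was measured on Clariom S arrays. The authors deposited log2 values per probe set, 1 column per array. How background and differences between arrays were handled, and with which software, is not given in the sources used here. The table held 28846 probe sets, 6640 of them controls, and the other 22206 entered the tests unchanged. The platform annotation gave 19572 a single gene symbol, leaving 2634 unnamed here, and a gene with several was represented by the one with the highest mean. Groups followed the sample titles. Differences were fitted on all 22 arrays with 4 group means (limma 3.58.1 under R 4.3.3, moderated by eBayes), two-sided, adjusted by Benjamini-Hochberg at a threshold of 0.05, and the script was tested on simulated data. Arrays give no read depth, so their number limits the precision. An array stood apart when its position along the M0 signature (3247 probe sets, 0 for numbers 1 to 4 and 1 for numbers 5 and 6) was above 0.5. The lowest such position was 0.77 and the highest of the rest 0.30.

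The members and gene lists were chosen with earlier results of these data known. Named genes were all members, other complement genes past the threshold, the 3 genes most like each member, and Nos2, Il6 and Lcn2 as a check of LPS. Same-numbered Ctrl and HMB arrays shared their deviations from the group means in all 6 pairs (r = 0.63, 0.18, 0.24, 0.31, 0.61 and 0.62), so the numbers were taken to pair these, as a hint that the labels do not state. In the other groups not every pair was above 0.1, with r from 0.08 to 0.42 between HMB+LPS and HMB, −0.52 to 0.62 between HMB+LPS and LPS and −0.38 to 0.46 between LPS and Ctrl, so these were not taken as paired. Alternatives covered normalization, filtering, weights, the array set, control separation, a replicate block and each array left out. No 2 arrays held identical values.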

Additional observations from a re-analysis of the deposited data

Results flagged for a closer look

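In 4 of the 32 sets of values (8 members in 4 groups), 1 array lay far from the rest of its group by Dixon's test, where chance gives about 1 in 20. The sets share arrays and are not independent, and 3 of the 4 were on HMB 1. The count is therefore not a test against that share. On HMB 1, C1qb was 15.71 (next lowest HMB array 16.80), C1qc was 15.20 (next 16.33) and C5ar1 was 11.45 (next 14.40). HMB 1 had a control separation of 3.78, against a mean of 4.58 ± 0.48 in HMB (SD, n = 6), and whether this bears on the 3 values was not tested. On HMB+LPS 2, Cfb was 13.07, against 12.11 on the next highest array of that group.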

How the results depend on the processing

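Members called in LPS against Ctrl (2 of 8 over all arrays) numbered 1 with only the 2 groups fitted, on the 8 arrays that stand apart and without arrays of low control separation, 5 without the 8 arrays and with the array set as a term, 0 by the methods' t-test after adjustment and 6 before it. In HMB+LPS against HMB (2 of 8), the count was 4 with probe sets near the negative controls left out, with array weights and by the unadjusted t-test, and 5 without the 8 arrays and with the set as a term. In HMB+LPS against LPS (0 of 8) it was 1 on the 8 arrays. Other complement genes called in LPS against Ctrl (1 of 41) numbered 2 under quantile normalization, an intensity trend and the replicate block, 3 with the filter, 4 without the 8 arrays and with the set as a term, 0 on the 8 arrays, without low control separation and by the adjusted t-test, and 5 by the unadjusted one. With each array left out, the 4 counts ran from 2 to 4 (4 without LPS 6), from 2 to 4 (4 without HMB+LPS 5 or 6), stayed at 0, and ran from 0 (without LPS 4) to 4 (without LPS 6). They were 2 without HMB 1 or LPS 3. By limma over all arrays, 5 of 8 members and 3175 of 22206 probe sets had an unadjusted p under 0.05 in LPS against Ctrl. In HMB+LPS against HMB these counts were 5 and 3439. Shares over all probe sets are given above for the fits without the 8 arrays and with only those 8. For the other alternatives they are not given, so those counts cannot be set against all probe sets.

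With the replicate number as a block, for arrays that outside Ctrl and HMB share only a number, C1qc in HMB+LPS against HMB passed (−2.25, adjusted p = 0.0384), and no other call of a member changed. Signs turned for differences near 0 that passed no test: C4b in HMB+LPS against HMB (0.017 without the 8 arrays), C3ar1 there (−0.024 on the 8 arrays, −0.12 without low control separation), Cfb in HMB against Ctrl (0.23 on the 8 arrays, 0.035 without low control separation, and −0.25 to 0.0090 with each array left out, positive only without Ctrl 1), and C1qc in HMB against Ctrl (−0.085 without the 8 arrays). Larger Cfb differences turned too without the 8 arrays. In HMB+LPS against LPS Cfb went from 1.15 over all arrays to −0.37, and it passed on the 8 arrays alone (3.43, limma adjusted p = 0.00794). In the difference between both HMB effects it went from 1.28 to −0.058. Over the alternatives the adjusted p in LPS against Ctrl ran from 3.14e-08 to 0.144 for Cfb, above the threshold by the adjusted t-test only, and from 0.00102 to 0.262 for Cfp. That test also ended the calls of Cd55b (0.0551), Itgam (0.0502), Itgax (0.0947) and Cd93 (0.0676) in HMB+LPS against HMB and of Cd93 (0.161) in LPS against Ctrl. Of 932 values of the named genes under 37 alternatives, 870 kept direction and call, 20 lost and 33 gained a call. Causes of these shifts were not tested.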

Other observations

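Apart from the genes named above, 3 further complement genes passed the test only in fits of some of the arrays, and they are named after their values were seen. Fcna, which encodes ficolin A, a recognition molecule of the lectin pathway, fell without the 8 arrays that stand apart by 3.56 in LPS against Ctrl (SE 0.61, adjusted p = 0.00118) and by 3.25 in HMB+LPS against HMB (SE 0.61, adjusted p = 0.00251). Over all arrays its differences were −1.93 (adjusted p = 0.17) and −2.37 (adjusted p = 0.0577). C5ar2, the second receptor for C5a, fell without the 8 arrays by 2.83 in LPS against Ctrl (SE 0.61, adjusted p = 0.00598) and by 2.03 in HMB+LPS against HMB (SE 0.61, adjusted p = 0.0454). On the 8 arrays alone it was lower in HMB+LPS than in LPS, at −1.67 ± 0.30 (adjusted p = 0.0357). C1ra, a gene for the C1r protease, was higher on those 8 arrays in HMB+LPS than in HMB, at 1.82 ± 0.35 (adjusted p = 0.0323), and at 0.31 ± 0.70 without them (adjusted p = 0.874).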
